A study of Homo sapiens with 2 samples.

Results

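Metallothioneins are small, cysteine-rich proteins that bind zinc, copper and cadmium, and in humans most of their genes lie in 1 cluster on chromosome 16. Free zinc is sensed by the transcription factor MTF1, which binds metal response elements in front of the metallothionein genes and of SLC30A1, whose product, ZnT1, exports zinc across the plasma membrane. Liver cells express metallothioneins strongly, and the proteins are known to be scarce in many hepatocellular carcinomas. The genes described here are 6 metallothionein genes (MT1E, MT1F, MT1G, MT1M, MT1X and MT2A), MTF1 and SLC30A1. They were taken by symbol, and all 8 were found among the 44591 genes of the count table.

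The table holds reads from 2 established human hepatocellular carcinoma lines with no stated treatment, grown in the same serum-supplemented medium and labelled wild type. MHCC97H is described as having high spontaneous metastatic potential and MHCC97L as having low potential. Both are known as clones of 1 parental line, MHCC97, so each stands for 1 clone. Each line had 1 poly(A)-selected RNA library, with 28967153 counted reads in MHCC97H and 24964246 in MHCC97L. There is therefore no replicate error, no difference below has a test, and all intervals are 95% exact intervals that cover counting error only, which PCR copies of the same molecule may make too narrow. Of 10 hepatocyte marker genes, 7 reached 1 CPM in either library (CPM being counts scaled to the library size). Their summed level of 5936 CPM in MHCC97H and 8616 CPM in MHCC97L was mostly SERPINA1 (5800 and 8422 CPM), while ALB, the albumin gene, stood at 1.85 and 5.57 CPM and APOA1, AFP and TF were not kept. Of the cholangiocyte markers 6 of 6 were kept (summed level 1115 CPM in MHCC97H and 1127 CPM in MHCC97L), of the fibroblast or stellate cell markers 5 of 6 (29.2 and 41.1 CPM), of the leukocyte markers 2 of 5 and of the endothelial markers 0 of 4. The cholangiocyte sum was mostly KRT19 (531 and 555 CPM), EPCAM (371 and 300 CPM) and SOX9 (150 and 182 CPM). Its close values hide larger differences in KRT7 (9.43 and 21.6 CPM), AQP1 (18.7 and 53.2 CPM) and CFTR (34.7 and 15.2 CPM). The part of these markers in the results was not tested.

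The sequences in front of 4 of the 8 genes (MT1X, MT2A, MTF1 and SLC30A1) were at hand from RefSeq, build GRCh38.p14, whereas the reads were aligned to hg19. The 250 bases before each gene start are shown because they hold, or lack, the letters MTF1 is known to recognise. Capitals mark the metal response element core, searched on both strands as TGCACNC or TGCGCNC (N being any base). The 2 patterns differ at a fixed base, and no cores overlap in the windows printed.
MT2A, chr16:56608334-56608583, plus strand: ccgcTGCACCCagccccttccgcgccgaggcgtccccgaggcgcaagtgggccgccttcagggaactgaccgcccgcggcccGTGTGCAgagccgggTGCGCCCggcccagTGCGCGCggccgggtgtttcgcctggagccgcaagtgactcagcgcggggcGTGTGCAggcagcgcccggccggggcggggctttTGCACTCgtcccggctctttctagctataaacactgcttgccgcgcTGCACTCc
MT1X, chr16:56682220-56682469, plus strand: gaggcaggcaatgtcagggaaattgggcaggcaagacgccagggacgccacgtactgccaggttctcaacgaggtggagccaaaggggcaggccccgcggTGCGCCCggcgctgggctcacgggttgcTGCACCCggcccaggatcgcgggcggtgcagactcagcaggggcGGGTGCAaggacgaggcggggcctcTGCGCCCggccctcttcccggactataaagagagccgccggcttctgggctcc
SLC30A1, chr1:211579162-211579411, minus strand: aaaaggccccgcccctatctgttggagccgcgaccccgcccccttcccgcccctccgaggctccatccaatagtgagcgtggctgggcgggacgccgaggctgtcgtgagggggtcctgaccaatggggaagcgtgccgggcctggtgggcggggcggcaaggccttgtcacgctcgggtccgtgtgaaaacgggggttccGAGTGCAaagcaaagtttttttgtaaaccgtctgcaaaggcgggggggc
MTF1, chr1:37859593-37859842, minus strand: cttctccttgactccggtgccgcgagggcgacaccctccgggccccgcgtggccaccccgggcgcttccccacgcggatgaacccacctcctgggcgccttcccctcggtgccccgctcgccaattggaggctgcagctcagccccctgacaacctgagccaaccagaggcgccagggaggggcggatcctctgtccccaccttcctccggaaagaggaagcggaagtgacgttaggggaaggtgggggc

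MT2A had 7 cores in this window, MT1X had 4, SLC30A1 had 1 and MTF1 had 0. Of 34788 distinct windows of this length before RefSeq gene starts, 24.8% held at least 1 core, 0.368% held at least 4 and 0.0316% held at least 7. TGCACNC alone was in 9.87% of the windows and TGCGCNC in 16.8%. Both metallothionein windows also held the letters TATAAA on the gene strand, from base -29 in MT2A and from base -30 in MT1X, which 6.84% of all windows do. Cores were not confined to the genes with many reads. The window of MT1H, a further metallothionein gene, held 8 cores, and that of MT1B held 3, although MT1H had 0 reads in MHCC97H and 5 in MHCC97L, and MT1B had 0 in both.

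**Figure D1:**
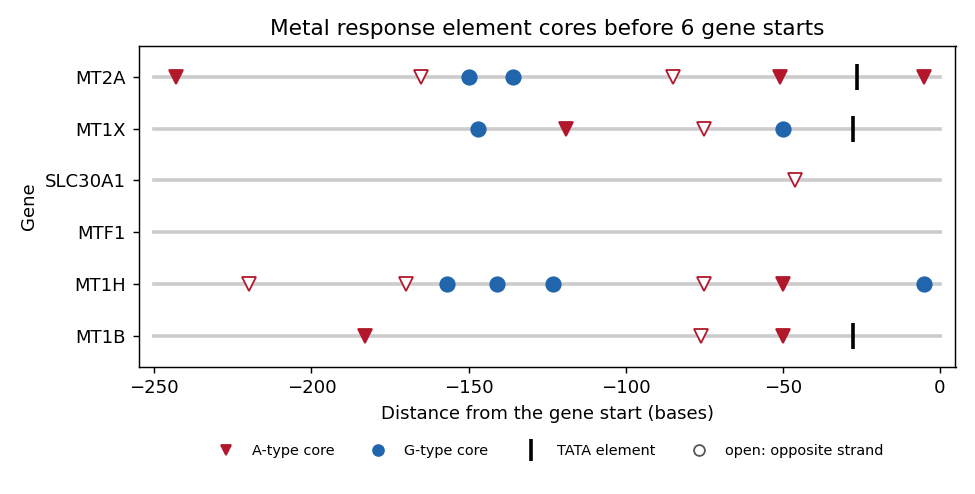
Positions of metal response element cores in the 250 bases before the start of 6 genes, as distance from the gene start in bases; triangles are TGCACNC (A-type), circles TGCGCNC (G-type), bars TATAAA, and open symbols lie on the opposite strand. The windows hold 7 cores for MT2A, 4 for MT1X, 1 for SLC30A1, 0 for MTF1, 8 for MT1H and 3 for MT1B.

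The comparison is of 1 library per line, so it describes these 2 cultures and cannot be tied to metastatic potential. None of the metallothionein and zinc-responsive genes was called at 2-fold. A gene was called when its ratio between the libraries was at least 2-fold after trimmed mean of M-values (TMM) scaling and its counting interval excluded equal expression. Of the 8 genes, 7 had at least 1 CPM in either library, the level required of a gene to be kept. Of these 7, 0 were called higher in MHCC97H and 0 were called lower. Of all 14578 kept genes, 7.06% were called higher and 4.65% lower (11.7% in either direction). With only 7 genes, 0 calls at 2-fold is not far from these shares. At 1.5-fold, tried only with TMM scaling, the count was again 0 of 7, against 19.3% of kept genes higher and 13.8% lower (33.1% together). MT1F fell just short, at 1.49-fold higher in MHCC97L. Other treatments gave log2 ratios past 1.5-fold. With total counts these were 0.62 for MT1E and 0.65 for both MTF1 and SLC30A1. With DESeq2 size factors MT1F stood at -0.60. With the GC and length trend described below removed, MT1E stood at 0.86 and MT2A at 0.60. The median log2 ratio of MHCC97H over MHCC97L was -0.07 over the 7 genes and 0.03 over all kept genes.

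MT2A encodes the most widely expressed human metallothionein. It had 913 reads (29.7 CPM) in MHCC97H and 733 reads (31.2 CPM) in MHCC97L, a log2 ratio of -0.07 (interval -0.21 to 0.07). The intervals of the levels overlapped, at 27.8 to 31.7 CPM and 28.9 to 33.5 CPM. MT1X, an isoform of the MT1 group, had 459 reads (14.9 CPM) and 370 reads (15.7 CPM), a log2 ratio of -0.08 (-0.28 to 0.13). MT1G had 299 reads (9.72 CPM) and 249 reads (10.6 CPM), a log2 ratio of -0.12 (-0.37 to 0.13). The intervals of these 3 ratios all include equality. With total counts in place of TMM, which moves every log2 ratio up by 0.17, the ratios of MT2A, MT1X and MT1G changed sign, to 0.10, 0.10 and 0.05. In bulk RNA, fewer cells with a transcript and less of it per cell cannot be told apart. Of all kept genes, 91.3% differed at least as much as MT2A did, 90.6% as much as MT1X and 84.6% as much as MT1G.

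MT1E, another MT1 isoform, had the most reads in the family in both libraries. It had 1506 reads (49.0 CPM, interval 46.5 to 51.5) in MHCC97H and 842 reads (35.8 CPM, 33.4 to 38.3) in MHCC97L. Its level was thus 1.37-fold higher in MHCC97H (1.26 to 1.49), beyond counting error but below the 2-fold rule. A ratio at least this far from equality was found in 46.5% of kept genes. MT1F stood on the other side, with 192 reads (6.24 CPM, 5.39 to 7.19) in MHCC97H and 219 reads (9.31 CPM, 8.12 to 10.6) in MHCC97L. Its level was 1.49-fold higher in MHCC97L (1.22 to 1.82), a size that 35.2% of kept genes reached in either direction. MT1M was nearly silent, with 0 reads in MHCC97H (exact upper limit 0.120 CPM) and 1 read in MHCC97L, so that no ratio can be given.

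**Figure D2:**
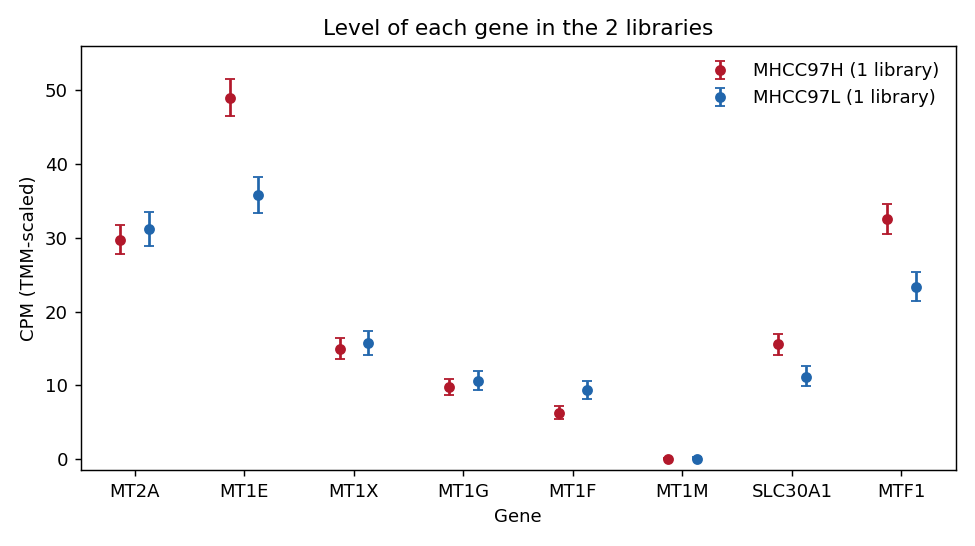
Level of each of the 8 genes in CPM after TMM scaling in the MHCC97H library (red) and the MHCC97L library (blue), 1 library per line; points are the levels and bars their 95% exact Poisson intervals. MT1E, MTF1 and SLC30A1 are higher in MHCC97H and MT1F in MHCC97L, MT2A, MT1X and MT1G overlap, and MT1M is near 0.

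The regulator and the exporter had nearly the same ratio. MTF1 had 1000 reads (32.5 CPM, interval 30.5 to 34.6) in MHCC97H and 549 reads (23.3 CPM, 21.4 to 25.4) in MHCC97L, a level 1.39-fold higher in MHCC97H (1.25 to 1.55). SLC30A1 had 478 reads (15.5 CPM, 14.2 to 17.0) and 263 reads (11.2 CPM, 9.87 to 12.6), also 1.39-fold higher (1.19 to 1.62). The intervals of the 2 libraries did not overlap for either gene. Among kept genes, 44.0% had a ratio at least as far from equality as that of MTF1 and 44.3% as that of SLC30A1.

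These differences changed when the base composition and length of the transcripts were taken into account. Over the 13856 kept genes with a value, the log2 ratio had a Spearman correlation of -0.64 with GC content and 0.37 with length, across genes, which are not independent replicates and share the 2 libraries. MTF1 and SLC30A1 have long transcripts of low GC content (7972 bases at 46.7% and 5474 bases at 38.0%). The 6 metallothionein transcripts are short, from 538 to 829 bases, and have a GC content of 53.5 to 63.0%. With the trend removed, the log2 ratio of SLC30A1 went from 0.47 to -0.31 (interval -0.53 to -0.08) and that of MTF1 from 0.48 to 0.17 (0.02 to 0.32). The metallothioneins all moved upward, MT1E from 0.45 to 0.86 (0.74 to 0.98) and MT2A from -0.07 to 0.60 (0.45 to 0.74). MT1G reached 0.40 (0.15 to 0.65), MT1X 0.39 (0.19 to 0.59) and MT1F 0.02 (-0.27 to 0.31). Still 0 of 7 were called, against 2.31% of genes higher and 3.76% lower. Removal also narrowed the standard deviation of the log2 ratio over genes from 0.68 to 0.54. The shares of kept genes that differed at least as much, given above for each gene, hold before removal and were not computed after it. What causes the trend was not tested, and the sign of every ratio here except those of MT1E and MTF1 depended on whether it was removed.

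**Figure D3:**
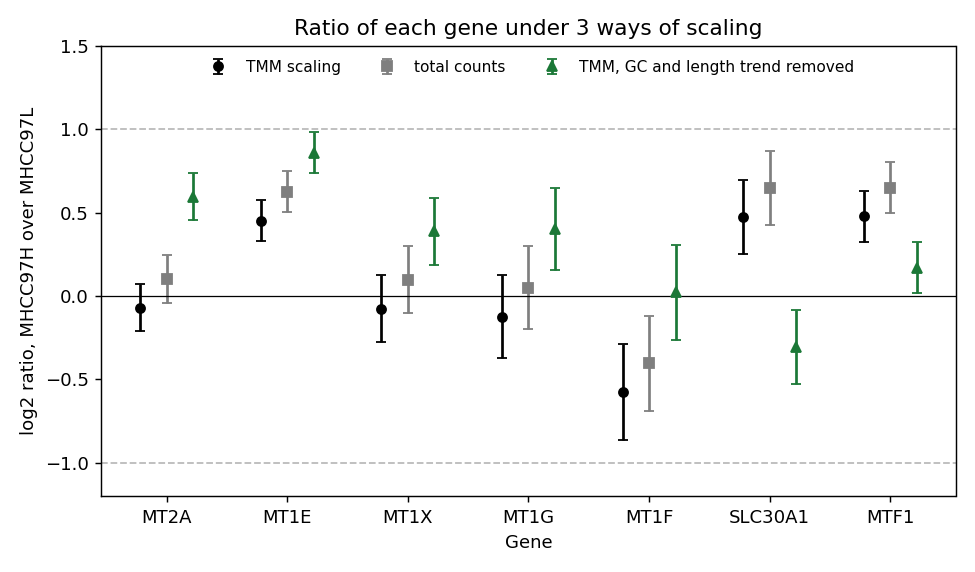
Log2 ratio of MHCC97H over MHCC97L for the 7 kept genes with TMM scaling (black circles), with total counts (grey squares) and with the trend with transcript GC content and length removed (green triangles); bars are 95% exact counting intervals and dashed lines mark 2-fold. No gene reaches a dashed line, MT1E is above 0 in each, and SLC30A1 goes from 0.47 to -0.31 with the trend removed.

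With TMM scaling and the GC and length trend left in, the summed level of the metallothioneins was close in the libraries. The trend was not removed from the sum. Its removal raised the log2 ratio of every kept metallothionein gene, to 0.86 for MT1E and 0.60 for MT2A, which hold most of these reads. Closeness of the sum was therefore not shown with the trend removed. Summed over the 15 MT1 and MT2 genes and pseudogenes in the table, 11 of which had a read, MHCC97H had 3422 reads (111.3 CPM) and MHCC97L had 2463 (104.7 CPM), a ratio of 1.06 (1.01 to 1.12) or 0.09 on the log2 scale (0.01 to 0.16). The interval included equality with DESeq2 size factors (log2 ratio 0.06, -0.01 to 0.14) and with genes kept at 5 CPM (0.07, -0.01 to 0.14), and the log2 ratio was 0.26 with total counts. Shares of these reads, unlike the sum, do not depend on how the libraries are scaled. MT1E made up 44.0% of these reads in MHCC97H (42.3 to 45.7%) and 34.2% in MHCC97L (32.3 to 36.1%). MT2A came next, with 26.7% (25.2 to 28.2%) and 29.8% (28.0 to 31.6%), and MT1X had 13.4% (12.3 to 14.6%) and 15.0% (13.6 to 16.5%). MT1G had 8.74% (7.81 to 9.73%) and 10.1% (8.95 to 11.4%). MT1F had 5.61% (4.86 to 6.44%) in MHCC97H and 8.89% (7.80 to 10.1%) in MHCC97L. The intervals of the 2 libraries were apart for MT1E and MT1F and overlapped for MT2A, MT1X and MT1G. Overlap of separate intervals does not show that the shares were equal. For MT2A it was narrow, with an upper limit of 28.2% in MHCC97H and a lower limit of 28.0% in MHCC97L. Shares of 1 total are also tied, so a larger share of MT1E leaves less for the other genes.

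Per read of MT1F there were 7.84 reads of MT1E in MHCC97H (6.75 to 9.16) and 3.84 in MHCC97L (3.31 to 4.48). Per read of MT2A there were 1.65 reads of MT1E (1.52 to 1.79) and 1.15 (1.04 to 1.27). The log2 ratio of MT1E exceeded those of MT1F, MT1G, MT1X and MT2A by 1.03, 0.57, 0.53 and 0.52, and with the trend removed by 0.84, 0.46, 0.47 and 0.26. The order of levels per kilobase of transcript was the same in both libraries, from MT1E (67.2 CPM per kilobase in MHCC97H and 49.1 in MHCC97L) through MT2A (37.8 and 39.7), MT1X (27.7 and 29.2) and MT1G (15.5 and 16.9) to MT1F (9.05 and 13.5). SLC30A1 and MTF1 were lower on this scale, at 2.84 and 4.08 CPM per kilobase in MHCC97H and 2.04 and 2.93 in MHCC97L. Without MT1E the summed family stood at 62.3 CPM in MHCC97H and 68.9 CPM in MHCC97L, a ratio of 0.904 (0.846 to 0.967). On the log2 scale this is -0.15, and with total counts it was 0.03 (-0.07 to 0.12), so its direction depended on the scaling.

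**Figure D4:**
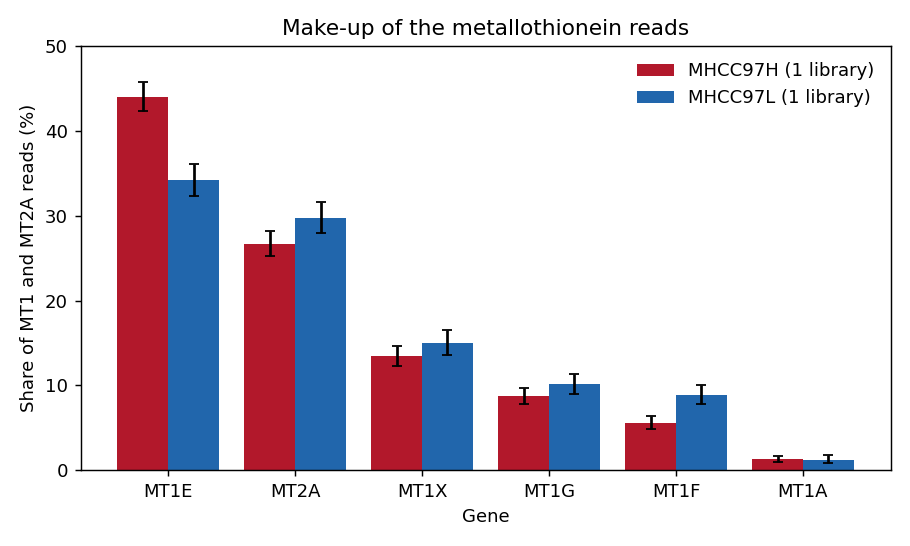
Share of each gene among the MT1 and MT2 reads of the MHCC97H (red, 3422 reads) and MHCC97L (blue, 2463 reads) library, in percent; bars start at 0 and whiskers are 95% exact Clopper-Pearson intervals. The share of MT1E is 44.0% against 34.2%, and that of MT1F 5.61% against 8.89%.

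Paralogs could exchange some of these reads. In the GENCODE 29 transcripts, 89.4% of the 50-base stretches of MT1E occur in no other gene, as do 96.4% for MT1F, 85.7% for MT1G, 92.9% for MT1M and 95.1% for MT2A. All 100-base stretches of these 5 are unique. MT1X is the exception, with 44.2% unique at 50 bases and 49.2% at 100, because the transcript gene AC026461.1, which is not in the count table, overlaps it on the same strand. No other of the 8 genes overlaps an exon of another gene in that annotation. The read length and the treatment of reads with several matches are unknown from the sources used here, so how far paralogs exchanged reads is uncertain. For MT1X the shared stretches lie at its own locus. They could lower its counts only if AC026461.1 was in the annotation used for counting, which is unknown.

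The remaining metallothionein genes had few reads. Of 12 listed genes and pseudogenes, 11 were in the table and 5 had no read in either library, among them MT3, known for its expression in brain. MT1A alone was kept, at 44 reads (1.43 CPM) in MHCC97H and 31 reads (1.32 CPM) in MHCC97L. MT4, known from stratified epithelium, had 0 reads in MHCC97H and 8 in MHCC97L, and was singled out after its values were seen, as was MT1H above.

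Zinc leaves the cytosol through ZnT proteins (SLC30 genes) and enters it through ZIP proteins (SLC39 genes). Of 9 ZnT genes besides SLC30A1, 6 were kept and 0 were called, with a median log2 ratio of 0.45 that became -0.24 with the trend removed, when SLC30A4, an endosomal zinc transporter gene at 2.86 CPM in MHCC97H and 4.29 CPM in MHCC97L, was called lower (log2 ratio -1.30, and -0.58 before removal). SLC30A4 was named after its values were seen. The most abundant were SLC30A5, which loads zinc into the early secretory pathway, at 49.1 CPM in MHCC97H and 37.8 CPM in MHCC97L, and SLC30A7, which acts in the Golgi, at 43.4 and 30.3 CPM. Their log2 ratios of 0.38 and 0.52 became -0.30 and -0.34 with the trend removed. Of 14 ZIP genes, 12 were kept, 1 was called higher and 0 lower, and the median was -0.09 (0.02 with the trend removed). The called gene was SLC39A10, a plasma membrane zinc importer that MTF1 is known to repress, with 262 reads (8.52 CPM) in MHCC97H and 96 reads (4.08 CPM) in MHCC97L, a 2.09-fold difference (1.65 to 2.67). With the trend removed its log2 ratio was 0.26 and it was no longer called. The abundant importer genes SLC39A1 and SLC39A7 stood at 278.5 and 154.7 CPM in MHCC97H and at 303.4 and 180.7 CPM in MHCC97L.

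Several of the other reported MTF1 targets are known from mouse. Their list includes SLC39A10, which MTF1 is known to repress, so no single direction is expected of it. Of 9, 8 were kept, 2 had a positive and 6 a negative log2 ratio, and SLC39A10 was the 1 called. The median of -0.26 became 0.09 with the trend removed. The most abundant, CSRP1, a LIM-domain protein gene, stood at 166.6 CPM in MHCC97H and 173.9 CPM in MHCC97L, and the selenoprotein gene SELENOH at 83.9 and 139.9 CPM, a log2 ratio of -0.74 that did not reach the rule. With the trend removed the log2 ratio of CSRP1 went from -0.06 to 0.24 and that of SELENOH to -0.37. Of 12 copper-handling genes, all 12 were kept, 1 was called higher and the median was -0.04 (-0.07 with the trend removed). That gene was CP, which encodes the copper-carrying ferroxidase ceruloplasmin, with 91 reads in MHCC97H and 23 in MHCC97L, a 3.03-fold difference (1.90 to 5.01). It lies below the level set for naming and was named after its values were seen, and with the trend removed its log2 ratio was 0.86 and it was not called. SOD1, the copper-zinc superoxide dismutase, was at 97.4 and 107.2 CPM, and the copper importer gene SLC31A1 at 101.4 and 57.9 CPM, a log2 ratio of 0.81 that became 0.39 with the trend removed.

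Metallothionein genes are also known to respond to glucocorticoids and to metal stress. The glucocorticoid receptor gene NR3C1 had 8 reads in each library. Of 12 genes of that response, 9 were kept, 1 was called higher and 0 lower, with a median of -0.34 (-0.22 with the trend removed). The called gene, KLF9, a transcription factor, was at 18.8 CPM in MHCC97H and 8.80 CPM in MHCC97L, 2.13-fold higher (1.82 to 2.51), and was not called with the trend removed (log2 ratio 0.79). PDK4, a pyruvate dehydrogenase kinase gene, was then called lower instead (log2 ratio -1.02, and -0.34 before removal). The most abundant, CEBPD and ERRFI1, had log2 ratios of -0.93 and 0.90, which became -0.33 and 0.49. Of 13 metal and proteotoxic stress genes, all were kept, 1 was called higher and 1 lower, with a median of 0.29 (0.25 with the trend removed). HMOX1, the haem oxygenase gene that cadmium is known to induce, was at 18.4 CPM in MHCC97H and 105.6 CPM in MHCC97L, a log2 ratio of -2.52 (-2.19 with the trend removed). GCLM, which encodes a subunit of the enzyme that starts glutathione synthesis, was called lower as well once the trend was removed (log2 ratio -1.15, and -0.35 before). HSPA6, a heat shock protein gene, was higher, with 108 reads in MHCC97H and 40 in MHCC97L (log2 ratio 1.04). It was still called higher with the trend removed (log2 ratio 1.34). PDK4, GCLM and HSPA6 were named after their values were seen. The abundant chaperone genes DNAJB1 and HSPA1B had log2 ratios of 0.10 and 0.30, which became 0.25 and 0.60 with the trend removed. HSPA1B has a near-identical copy, HSPA1A, and how reads matching both were counted is unknown, so the value of HSPA1B is uncertain.

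**Figure D5:**
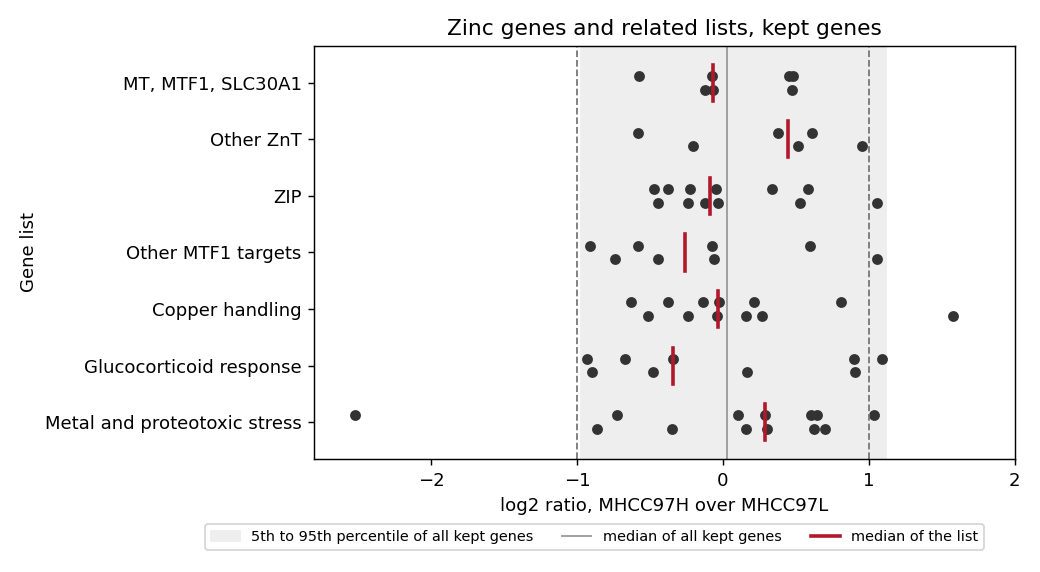
Log2 ratio of MHCC97H over MHCC97L for every kept gene of each list (points, vertical offset only to separate them), with the list median in red; grey shading spans the 5th to 95th percentile of all kept genes (-0.97 to 1.12), the grey line is their median and dashed lines mark 2-fold. The 7 metallothionein and zinc-responsive genes lie within the shading, and HMOX1 at -2.52 and CP at 1.58 lie outside it.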

How the data were processed

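Poly(A)-selected RNA of MHCC97H and MHCC97L, 1 library each, was profiled. The deposited values are unnormalised read counts for each gene; the submitters' processing notes name bcl2fastq, HISAT2 2.1.0, HTSeq 0.11.2 and hg19, while the sources used here name no annotation, strand setting or multi-mapping rule. Columns were tied to lines through the labels' sample descriptions.

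Genes with at least 1 CPM of the total count in either library were kept, and TMM factors (1.06 for MHCC97H, 0.942 for MHCC97L) were computed on them in edgeR 4.0.16 (R 4.3.3). Log2 ratios used a prior count of 0.5. Ratio and share intervals are exact Clopper-Pearson, level intervals exact Poisson, and no ratio is given where both libraries have under 3 counts. No p-value was computed. Transcript GC content and length came from the longest coding transcript of GENCODE 29, and their lowess trend (span 0.2) was removed with statsmodels 0.14.6. These steps were tried on simulated counts with Poisson error only, planted changes and, for the trend, a planted linear GC slope. The simulation held no spread between cultures and no planted length trend. It therefore tests the code and not how well the steps suit these data. Alternatives covered scaling, filter, fold, prior count, interval and trend. From each of 7 lists, called genes of at least 5 CPM were named, up to 4, or the 2 most abundant as well where fewer than 2 were called. With 2 libraries no likeness of pattern could be measured. The members and lists were chosen with earlier results of these data known. Python 3.11.15, numpy 2.4.6, pandas 2.3.3 and scipy 1.17.1 were used.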

Additional observations from a re-analysis of the deposited data

How the results depend on the processing

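Of 158 values recomputed with other scalings, filters, fold limits, prior counts, intervals and trend corrections, 116 stayed within their counting interval or within 1.5 times the count. A further 38 moved, and 4 changed the sign of a difference that had been beyond counting error. Of these 4, only SLC30A1 with GC and length removed had a new interval that excluded equality (-0.53 to -0.08). The 116 include log2 ratios that could not move, since neither the fold limit nor the kind of interval enters them. That number is therefore no measure of robustness. The count of called genes among the 8 stayed at 0 under all of these, and MT1E and MTF1 kept a positive log2 ratio. Each alternative was varied alone, so the 1.5-fold limit was not combined with other scalings or with trend removal. No paired analysis was possible because each line has 1 library, and none could be left out. With total counts all log2 ratios were larger by 0.17. They were 0.62 for MT1E, 0.65 for MTF1, 0.10 for MT2A, 0.10 for MT1X and 0.05 for MT1G, these last 3 changing sign. The summed metallothionein reads stood at 0.26. Called genes then numbered 1 of 6 kept ZnT and 3 of 9 kept glucocorticoid response genes. After removing the GC and length trend, the log2 ratio was -0.31 for SLC30A1 and 0.023 for MT1F, both of opposite sign to the main value, and 0.86, 0.40, 0.39, 0.60 and 0.17 for MT1E, MT1G, MT1X, MT2A and MTF1. With the GC trend alone removed it was -0.22 for SLC30A1, again of opposite sign but with an interval that included equality (-0.44 to 0.005). It was then 0.59, -0.25, 0.34 and 0.28 for MT1E, MT1F, MT2A and MTF1. Under either removal 1 of 6 kept ZnT genes was called, and 0 of 12 ZIP, 0 of 8 other MTF1 target and 0 of 12 copper genes. With GC alone removed, 0 of 9 glucocorticoid response genes were called. With GC and length removed, 2.31% of all genes with a value were called higher and 3.76% lower. The cause of the trend was not tested. Without MT1E the summed log2 ratio was -0.15 and became 0.027 with total counts, an alternative chosen after seeing the data. A summed family has no single GC value, so the trend was not removed from the sum. At 1.5-fold, 33.1% of all kept genes were called. Among kept list genes these were 2 of 6 ZnT, 1 of 12 ZIP and 4 of 8 other MTF1 target genes. They were also 3 of 12 copper, 6 of 9 glucocorticoid response and 8 of 13 stress genes. The share over all genes was not computed with total counts, with GC alone removed or with other filters. With no filter 2 other metallothionein genes, MT1H and MT4, were called, and with a filter at 5 CPM 0 copper genes and 1 stress gene, since fewer genes were tested. Per kilobase, the shares of MT1E were 41.4% in MHCC97H and 31.8% in MHCC97L, of MT1X 17.1% and 19.0% and of MT2A 23.3% and 25.7%. With 1 library per line, depth limits only the genes with few reads, such as MT1M, and the spread between cultures is unknown.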
